A study of Mus musculus with 5 samples.

Results

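The genes described here are the troponins, tropomyosins and actins of the thin filament, 10 of the 17228 genes in the deposited table, chosen by symbol. The cardiac set is Tnnt2, Tnni3, Tnnc1, Tpm1 and Actc1. The other members are Tnni1, Tnnt1, Tpm2, Acta1 and Acta2, which belong mainly to fetal heart, slow skeletal muscle or smooth muscle. Of the 10, 9 passed the filter on low counts and were tested, and Tnni1 did not.

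Poly-A RNA was sequenced from 3 hearts of db/db mice, whose genotype is labelled KsJ-Lepr db/Lepr db (2 females and 1 male, diabetic), and from 2 hearts of WT mice (1 female and 1 male, non diabetic). The protocol text speaks of males, whereas 3 samples are labelled female. All were 6 months old, were given a standard diet and carry the strain label C57BL; the labels place KsJ in the db/db genotype only, so strain background and the Lepr mutation cannot be told apart. The study asked how type 2 diabetes acts on the heart. Nothing in the labels says that each library came from its own animal, so p-values measure the spread between these libraries, which may be technical.

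Libraries held 8356090 to 10381329 counts. Levels are given as CPM, the count scaled to library size, or as TPM, the deposited level that is also scaled to gene length. A count of 0 would allow up to 0.289 to 0.359 CPM. Ventricular markers were abundant, whereas the atrial genes Myl7, Sln and Bmp10 lay between 0 and 10.7 TPM and Myl4 between 5.13 and 9.37 TPM. Nppa, the atrial natriuretic peptide gene, which ventricles also express, was at 398 to 508 TPM in db/db and 825 to 860 TPM in WT. Myl7, Sln and Myl4 were highest in the db/db male. The libraries differed in the level of short genes, and whether this is technical was not tested. In the shortest of 10 length groups the median log2 deviation was 0.28 in the db/db male and -0.28 in the WT female, against -0.017 to 0.008 in the other libraries. Tnnc1, Tnni3, Tnnt2 and Tpm1 are short, at 616, 751, 1057 and 1127 bases as implied by the deposited values, so values with these libraries left out are given beside the results.

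The thin filament is a double strand of actin with tropomyosin lying along it and troponin spaced at regular intervals. Troponin C binds calcium, troponin I holds the filament off when calcium is low, and troponin T ties the complex to tropomyosin. The adult mouse heart uses the cardiac isoforms, while Tnni1 and the skeletal alpha-actin Acta1 are prominent before birth, and a return of Acta1 is a classic sign of a loaded heart. Acta2 marks smooth muscle cells, some pericytes and activated fibroblasts.

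The alpha-actins are near-identical proteins, so their coding sequences are shown to let a reader judge how well reads can tell them apart. The first 90 coding bases of the GENCODE M21 transcripts are given in lower case, with capitals at the 26 positions where the 3 genes are not all alike.
Actc1: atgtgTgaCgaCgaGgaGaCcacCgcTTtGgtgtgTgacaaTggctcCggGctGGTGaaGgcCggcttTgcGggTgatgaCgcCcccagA
Acta1: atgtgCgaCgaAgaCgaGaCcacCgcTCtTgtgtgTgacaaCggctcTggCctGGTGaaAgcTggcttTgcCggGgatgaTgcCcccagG
Acta2: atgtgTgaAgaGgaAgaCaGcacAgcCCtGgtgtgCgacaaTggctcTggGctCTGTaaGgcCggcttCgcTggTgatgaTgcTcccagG
Over the whole coding sequence of 1134 bases, Acta1 matched Actc1 at 86.2% of positions and Acta2 at 85.4%, and Actc1 matched Acta2 at 82.5%. The longest identical run was 29 bases between Acta1 and either of the other genes, and 23 bases between Actc1 and Acta2. No stretch of 50 bases of the Actc1 coding sequence occurred in a transcript of Acta1 or Acta2, nor one of Acta1 in Acta2. How the authors' counting treated shorter matches was not stated.

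A pair of these actins, Actc1 and Acta1, also carries an exact match to the same regulatory motif. The 130 bases before the RefSeq start site are shown with the CArG box, the binding motif of serum response factor (SRF), in capitals. Both lie on the minus strand of GRCm38.p6, Actc1 at chr2:114052876-114053005 and Acta1 at chr8:123894776-123894905.
Actc1: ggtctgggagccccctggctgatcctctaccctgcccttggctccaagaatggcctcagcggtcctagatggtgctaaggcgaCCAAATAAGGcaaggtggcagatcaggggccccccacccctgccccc
Acta1: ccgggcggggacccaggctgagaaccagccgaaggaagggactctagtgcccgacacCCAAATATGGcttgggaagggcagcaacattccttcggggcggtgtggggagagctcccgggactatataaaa
The search covered both strands of the 250 bases before each start site. The deposited gene span of Actc1 runs to 114053863, so its printed stretch lies before the RefSeq start site but inside that span. The Tnnc1 window likewise lies inside its deposited span. Whether a match is upstream thus depends on the start site used. The CArG box in its exact consensus form was found in these 2 of the 10 members and in 1.47% of all 32851 promoter windows. With at most 1 departure from the consensus, matches were also found upstream of Acta2, Tnnt2 and Tpm1, and in 18.6% of all windows. This looser search was added after the data were seen. CATTCC, the core of the M-CAT motif bound by TEAD factors, was found upstream of Tnnt2, Tnnc1, Tpm1, Acta1 and Acta2 and in 12.6% of all windows, and TATAAA upstream of Acta1 and Tnnt1 and in 12.4%. The MEF2 site was found in no member and in 1.69% of windows. These are matches of letters only.

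The genes of troponin I lie in pairs with those of troponin T. Tnni3 and Tnnt1 are neighbours on chromosome 7, both on the minus strand, with 2304 bases and no annotated gene between them, yet Tnni3 was at 15362 to 17153 TPM and Tnnt1 at 17.0 to 24.6 TPM. On chromosome 1, Tnni1 and Tnnt2 lie on the plus strand, 25325 bases apart with the gene Lad1 between them. Here the troponin T was the abundant partner, with Tnnt2 at 11812 to 15977 TPM and Tnni1 at 0.3 to 1.81 TPM.

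The cardiac set dominated in every library. Its 5 genes summed to 78528, 74232 and 75815 TPM in the db/db females 1 and 2 and the db/db male, against 74277 and 74471 TPM in the WT female and male. This was 7.42% to 7.85% of all TPM in db/db and 7.43% to 7.45% in WT, so the groups overlapped. All 5 were among the 12 most abundant genes of every library. The other 5 members together reached 549, 235 and 610 TPM in db/db and 507 and 1074 TPM in WT. In order of level on the TPM scale, the cardiac genes came first, then Acta1, Acta2, Tpm2, Tnnt1 and Tnni1. Acta1 came within the spread of Acta2, since its lowest value (109 TPM, db/db female 2) was below the highest of Acta2 (144 TPM, WT female). Tpm2 and Tnnt1 also overlapped, at 23.5 to 32.4 TPM against 17.0 to 24.6 TPM.

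**Figure D1:**
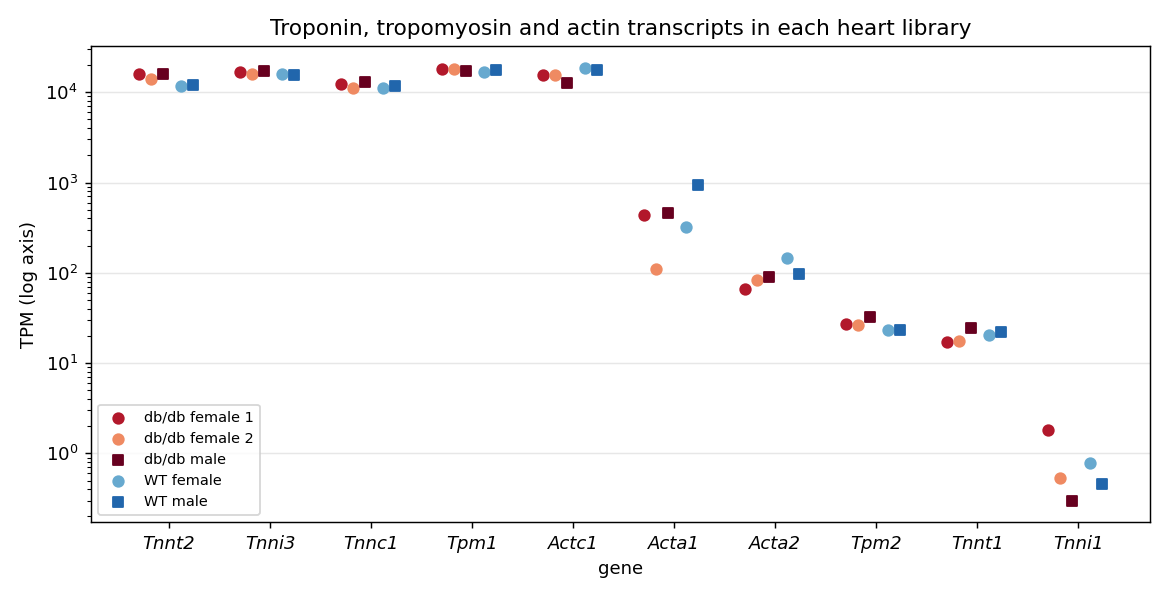
TPM of each member (log axis) in each library; circles are females, squares males, red shades db/db and blue shades WT. The 5 cardiac genes sit at 11038 TPM or above, and Acta1 spreads from 109 to 931 TPM.

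In the comparison of db/db with WT, which asked what diabetes does to heart transcripts, no member passed. Of the 9 members tested, edgeR called 0 at an adjusted p under 0.05, where 1.03% of all tested genes were called (84 higher, 45 lower). At an unadjusted p under 0.05 there were 2 members, Tnnt2 and Tpm2, where 12.9% of all genes had such a p; limma-voom called 0 and DESeq2 called 1, Tnnt2, where DESeq2 called 1.45% of all genes. The authors' deposited table gives q under 0.05 to 1.35% of genes, Tnnt2 among them. The troponin and tropomyosin genes of the cardiac set had higher means in db/db, and the actin genes did not. On TMM-scaled CPM the groups did not overlap for Tnnt2, Tnni3, Tpm1 and Tpm2, all higher in db/db, where 15.1% of all genes lay wholly higher. No member lay wholly lower, against 16.5% of all genes (31.6% in either direction).

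Tnnt2 encodes cardiac troponin T (chromosome 1, 135836315 to 135852268 in GRCm38.p6). It was at 13268, 11495 and 15666 CPM in the db/db females 1 and 2 and the db/db male, against 7885 and 9646 CPM in the WT female and male. Every db/db library lay above both WT libraries, and within each sex as well. The log2 fold change was 0.62 (SE 0.19, 95% interval 0.20 to 1.04), edgeR adjusted p = 0.199. Tnnt2 was called by DESeq2 (adjusted p = 0.0192), and the authors' deposited table gives it a log2 fold change of 0.63 with q = 0.0248. It was also called with sex as a covariate (0.67, edgeR adjusted p = 0.00244), and in females alone (0.65, adjusted p = 7.3e-05), where WT was a single library. It was 0.48 when the WT female was left out (adjusted p = 0.904), and 0.36 with the db/db male and WT female left out (edgeR adjusted p = 0.127). The gene length offset gave 0.46 (adjusted p = 0.121).

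Tnni3, cardiac troponin I (chromosome 7, 4518305 to 4522718), had 9912, 9346 and 12400 CPM in db/db, against 7540 and 8638 CPM in WT. The db/db libraries again lay above the WT libraries, the closest pair being the db/db female 2 and the WT male. Its log2 fold change was 0.38 (SE 0.18, 95% interval -0.017 to 0.78, edgeR adjusted p = 0.402). Tnnc1, which encodes troponin C of heart and slow muscle (chromosome 14, 31205126 to 31222888), had 5979, 5357 and 7658 CPM in db/db and 4278 and 5432 CPM in WT. The db/db female 2 was below the WT male, so the groups overlapped. The log2 fold change was also 0.38 (SE 0.20, edgeR adjusted p = 0.433). The table's Tnnc1 span overlaps Nisch and Sema3g, and with no strand setting known its counts are uncertain to that extent.

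Tpm1, alpha-tropomyosin (chromosome 9, 66998440 to 67049649), had 15971, 15871 and 18531 CPM in db/db and 11794 and 15001 CPM in WT. The WT male was close to the db/db females, and the WT female stood lowest. The log2 fold change was 0.33 (SE 0.18, edgeR adjusted p = 0.466). Tpm1 and Tnnt2 are spliced into many isoforms, and the counts are sums over 30 and 25 listed transcripts, so a shift between isoforms would not be seen. Tpm1 overlaps the noncoding gene Gm30639.

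With sex as a covariate 4 members were called, all higher: Tnnt2, Tnnc1 (0.44, edgeR adjusted p = 0.0194), Tnni3 (0.42, adjusted p = 0.0212) and Tpm1 (0.38, adjusted p = 0.032), where 6.63% of all genes were called and 4.62% were called higher. With the gene length offset beside sex, only Tnnt2 of these passed (0.48, adjusted p = 0.0139), where 3.55% of all genes were called and 2.28% were called higher. With the db/db male and WT female left out, the log2 fold changes were 0.16 for Tnni3, 0.062 for Tnnc1 and 0.086 for Tpm1. With the gene length offset and no sex term they were 0.15 for Tnni3, 0.12 for Tnnc1 and 0.19 for Tpm1.

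Actc1 encodes cardiac alpha-actin (chromosome 2, 114047282 to 114053863). It had 16787, 16695 and 16449 CPM in db/db, against 16171 and 17948 CPM in WT, so the db/db libraries fell between the WT libraries. Its log2 fold change was -0.036 (SE 0.16, 95% interval -0.39 to 0.32, edgeR adjusted p = 0.945). On the TPM scale the deposited values for Actc1 were 15501, 15480 and 12588 TPM in db/db and 18738 and 17406 TPM in WT, wholly lower in db/db. The scales differ for all genes: with limma on log2(TPM + 1) all genes had a median of -0.24, against -0.0072 with TMM, and 36.3% of all genes lay wholly lower on TPM (40.3% in either direction). Relative to that median, Actc1 (-0.32, limma adjusted p = 0.179) was close to the bulk of genes. On TPM, Tnnt2 and Tpm2 were the members wholly higher, where 3.94% of all genes were, and Actc1 and Acta2 were wholly lower. The calls over all genes also turned with scaling, at 59 higher and 85 lower with library totals and 52 higher and 99 lower with limma on log2(TPM + 1).

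**Figure D2:**
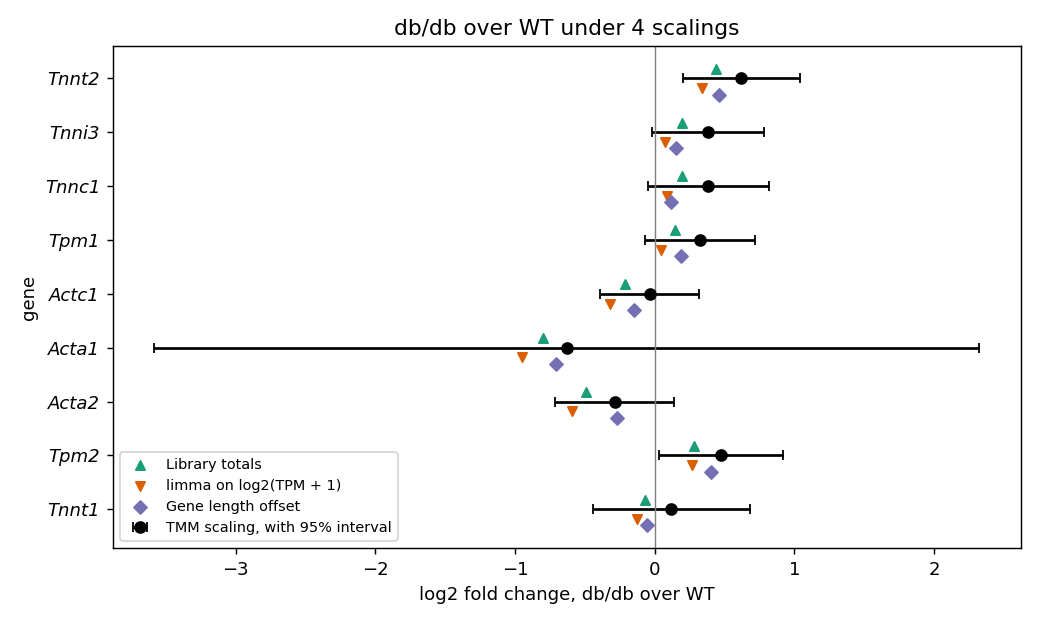
Log2 fold change of db/db over WT for the 9 tested members; black points and bars give the TMM-scaled edgeR value with its 95% interval, and coloured symbols the value with library totals, with limma on log2(TPM + 1) and with the gene length offset. Tnnt2 is at 0.34 to 0.62 across the 4 settings, and Tnnt1 crosses 0.

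A ratio of 2 genes within a library does not depend on the scaling. The cardiac troponin and tropomyosin transcripts were all more abundant relative to Actc1 in db/db. The TPM ratio of Tnnt2 to Actc1 was 1.03, 0.894 and 1.25 in the db/db females 1 and 2 and the db/db male, against 0.630 and 0.698 in the WT female and male. The ratio was highest in the db/db male and lowest in the WT female, and the groups did not overlap. The difference in mean log2 ratio was 0.66, with SDs of 0.24 in db/db (n = 3) and 0.10 in WT (n = 2). The exact permutation p was 0.1, the smallest these samples can give, and 0.25 when adjusted over the 10 pairs of cardiac genes compared. With the db/db male and WT female left out, the log2 difference was 0.46.

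The remaining ratios to Actc1 were also wholly higher in db/db. Tpm1 to Actc1 was 1.16, 1.16 and 1.38 in db/db and 0.888 and 1.02 in WT, a log2 difference of 0.37 (exact permutation p = 0.1). Tnni3 to Actc1 was 1.08, 1.02 and 1.36 in db/db and 0.856 and 0.883 in WT, a difference of 0.40 (exact p = 0.2). Tnnc1 to Actc1 was 0.797, 0.717 and 1.04 in db/db and 0.589 and 0.678 in WT, a difference of 0.41 (exact p = 0.2). Each was smaller with the db/db male and WT female left out, at 0.19, 0.25 and 0.16. All 4 gene pairs set a shorter transcript against Actc1, whose implied length is 1375 bases, so the length trend of these libraries moves with them, and its part in the ratios was not tested. For the single genes, the gene length offset gave log2 fold changes of -0.14 for Actc1, 0.46 for Tnnt2, 0.19 for Tpm1, 0.15 for Tnni3 and 0.12 for Tnnc1.

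Tnnt2 was also higher against its own partners in the troponin complex. Its TPM ratio to Tnni3 was 0.957, 0.872 and 0.917 in db/db and 0.736 and 0.791 in WT, and its ratio to Tnnc1 was 1.29, 1.25 and 1.21 in db/db and 1.07 and 1.03 in WT. The log2 differences were 0.26 and 0.25 (exact permutation p = 0.1 for both), and 0.21 and 0.30 with the db/db male and WT female left out. In both ratios Tnnt2 is the longer transcript, and the part of the length trend in them was not tested. Among Tnni3, Tnnc1 and Tpm1 the ratios differed little between groups. The log2 differences of their 3 ratios lay between -0.011 and 0.042, and the groups overlapped in all 3. Of the 10 ratios, 7 did not overlap between groups, and these 7 share genes. For single genes, 40.3% did not overlap on TPM; the share over all gene pairs was not computed.

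**Figure D3:**
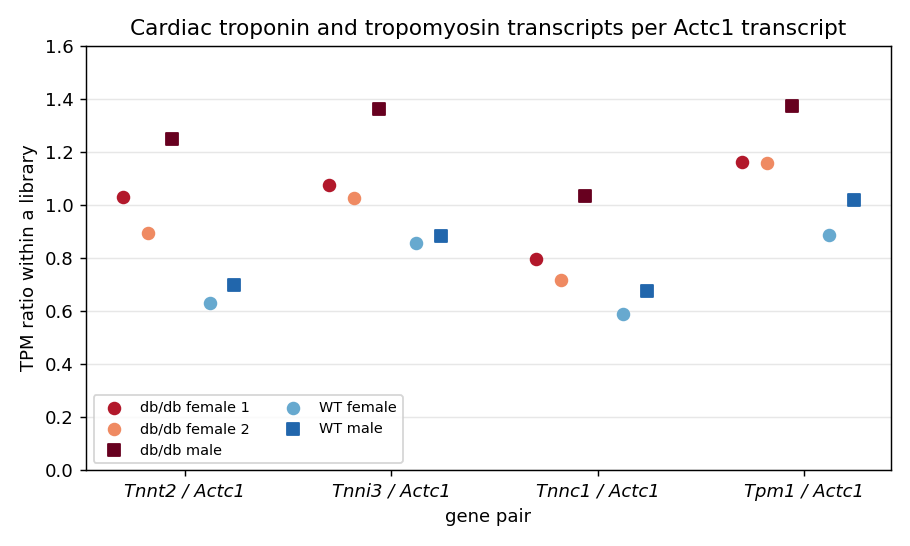
TPM of each cardiac troponin or tropomyosin gene divided by that of Actc1 within each library; red shades are db/db, blue shades WT, circles females and squares males. In each of the 4 pairs every db/db library lies above both WT libraries.

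Summed ventricular cardiomyocyte markers (Myh6, Myl2, Myl3, Ryr2, Atp2a2, Pln, Mb and Ttn) were at 115968 to 127145 TPM in db/db and 107190 to 113916 TPM in WT, and their part in these values was not tested. Of those 8 genes, edgeR called 0 (1 at an unadjusted p under 0.05), DESeq2 called 0, and 5 had positive values, with a median log2 fold change of 0.19 against -0.0072 over all tested genes. That median was 0.041 without the WT male, 0.094 with the db/db male and WT female left out, 0.0018 with library totals and -0.086 with limma on log2(TPM + 1). With sex as a covariate 3 of the 8 were called higher, where 4.62% of all genes were. As a share of these markers' TPM, Actc1 was 13.4%, 13.3% and 9.90% in db/db and 17.5% and 15.3% in WT (exact permutation p = 0.1). The db/db mean was 0.745 of the WT mean, and 0.874 of it with the db/db male and WT female left out. Tnnt2 was 13.8%, 11.9% and 12.4% in db/db and 11.0% and 10.7% in WT (exact p = 0.2), and its ratio of means was 1.17, or 1.2 with those libraries left out. In bulk heart RNA, fewer cells of a type and less RNA per cell cannot be told apart.

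Acta1, skeletal alpha-actin (chromosome 8, 123890942 to 123894775), varied most of the tested members. It had 480, 119 and 614 CPM in the db/db females 1 and 2 and the db/db male, and 278 and 974 CPM in the WT female and male. The highest library had 8.18 times the CPM of the lowest, whereas Actc1 varied 1.11-fold. The groups overlapped fully, with the highest value in the WT male and the lowest in the db/db female 2. The log2 fold change was -0.63 with an SE of 0.996 and a 95% interval from -3.59 to 2.32 (edgeR adjusted p = 0.84), so large changes in either direction lie within the interval. It turned to 0.54 without the WT male and was -1.27 without the WT female (adjusted p = 0.874 and 0.979).

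Acta1 made up a small share of sarcomeric actin transcripts. Of the summed TPM of Acta1 and Actc1, it was 2.74%, 0.698% and 3.55% in db/db and 1.67% and 5.08% in WT, a mean of 2.33% ± 1.47 (SD, n = 3) in db/db and 3.37% ± 2.41 (SD, n = 2) in WT. The exact permutation p was 0.5. The difference was -1.04 percentage points, 0.664 without the WT male and -2.75 without the WT female.

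The genes with a pattern closest to Acta1 over the 5 libraries, by Euclidean distance of centred log2 CPM among 10017 genes, were Casq1 (1.10), the skeletal muscle calsequestrin gene, Ppbp (1.44), a platelet chemokine gene, and Myh7 (1.46), the beta-myosin heavy chain gene. Myh7 had 495, 171 and 537 CPM in db/db and 147 and 398 CPM in WT. As with Acta1, its db/db female 2 was the lowest of the db/db libraries and its WT male was above its WT female. Summed skeletal muscle markers were at 77.6 to 94.7 TPM in db/db and 91.1 to 132 TPM in WT, mostly Myl1 (57.4 to 118 TPM), and Myh1 and Myh2 were at 0.5 TPM or below in every library.

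Of the 8 genes of the fetal programme outside the thin filament, 7 were tested, 1 fell, 0 rose and 6 did not pass by edgeR, where 0.359% of all genes were called lower. Their median log2 fold change was -0.18, but it was 0.058 when the db/db female 2 was left out, 0.015 for the WT female and 0.19 for the WT male, and stayed below 0 for the other libraries. Nppb, the gene of B-type natriuretic peptide, fell: it had 236, 142 and 193 CPM in db/db and 362 and 659 CPM in WT, a log2 fold change of -1.43 (SE 0.26, edgeR adjusted p = 0.0334). Its call was lost without the WT male (adjusted p = 0.182), without the db/db male (0.429), with sex as a covariate (0.141), with the replicate block (0.0881), without the filter (0.0709) and with limma-voom (0.0534). As with Acta1, the WT male was highest and the db/db female 2 lowest for Nppb, while the highest db/db library was the db/db female 1 for Nppb and the db/db male for Acta1.

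**Figure D4:**
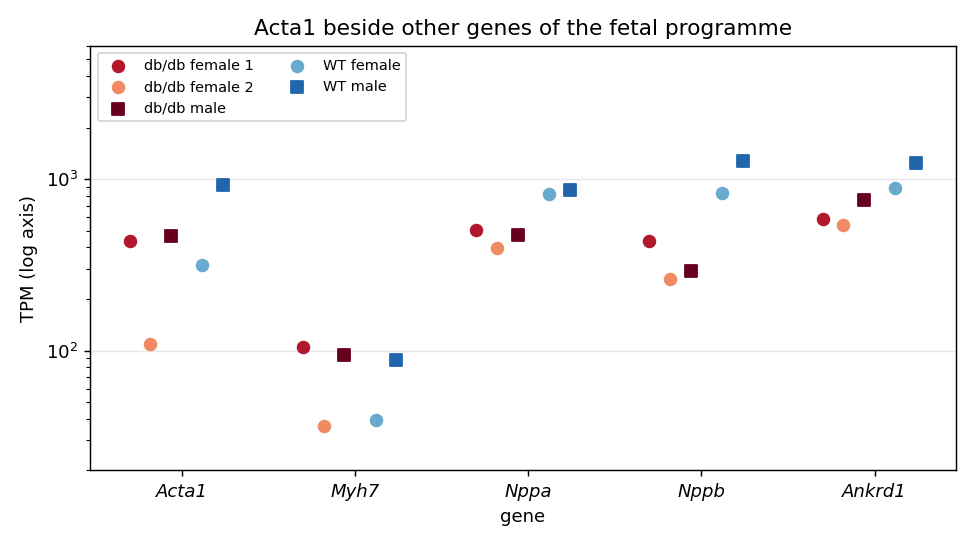
TPM (log axis) of Acta1 and 4 other genes of the fetal programme in each library; red shades are db/db, blue shades WT, circles females and squares males. For Nppa and Nppb every db/db library lies below both WT libraries, while for Acta1 and Myh7 the groups overlap.

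The slow skeletal troponins stayed at low levels. Tnnt1, slow skeletal troponin T (chromosome 7, 4504569 to 4516000), had 13.7, 13.4 and 23.9 CPM in db/db and 13.7 and 17.3 CPM in WT. The db/db male was highest, and the other libraries lay close together. The log2 fold change was 0.12 (SE 0.26, 95% interval -0.44 to 0.68, edgeR adjusted p = 0.882), and its sign turned under 9 of 20 alternatives. As a share of the TPM of Tnnt1 and Tnnt2 it was 0.106%, 0.127% and 0.156% in db/db and 0.175% and 0.181% in WT. The db/db libraries were wholly lower, with Tnnt2 as the larger term of the ratio (exact permutation p = 0.2, and 0.6 adjusted over the 4 shares).

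Tnni1, slow skeletal troponin I, is the fetal cardiac form (chromosome 1, 135783033 to 135810989). It had 14, 4 and 2 counts in db/db and 5 and 3 counts in WT, so every library but the db/db female 1 was at or near the floor of 3 counts. The ratio of summed counts, scaled to the libraries, was 1.77, with a 95% exact counting interval from 0.749 to 4.66, and 14 of the 20 db/db counts came from 1 library. Its share of the TPM of Tnni1 and Tnni3 was at most 0.0108% (db/db female 1), and the exact permutation p was 0.9. The same db/db libraries held 91859 to 97210 counts of Tnni3, so Tnni1 was present at a trace level only.

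Tpm2, beta-tropomyosin (chromosome 4, 43513726 to 43523583), had 34.1, 33.5 and 52.1 CPM in db/db and 27.3 and 29.8 CPM in WT. The db/db male stood apart, and both db/db females were only slightly above the WT libraries. The log2 fold change was 0.48 (SE 0.20, 95% interval 0.034 to 0.92, edgeR adjusted p = 0.357), and 0.24 without the db/db male. Its share of the TPM of Tpm1 and Tpm2 was 0.150%, 0.146% and 0.187% in db/db and 0.141% and 0.132% in WT (exact permutation p = 0.3). Its span overlaps Car9. Its closest patterns were those of Rpl29 (distance 0.0935), a ribosomal protein gene, Dus1l (0.105) and Lamtor4 (0.118). For Tnnt1 they were Nudt8 (0.136), 2410015M20Rik (0.153) and Dimt1 (0.157).

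Acta2, smooth muscle alpha-actin (chromosome 19, 34240336 to 34255585), had 129, 161 and 211 CPM in the db/db females 1 and 2 and the db/db male, and 225 and 182 CPM in the WT female and male. Both db/db females were below the WT female, whereas the db/db male exceeded the WT male. Over all libraries the log2 fold change was -0.29 (SE 0.20, 95% interval -0.72 to 0.14, edgeR adjusted p = 0.55). Leaving out the db/db male gave -0.49 (edgeR adjusted p = 0.112), leaving out the db/db female 1 gave -0.13 (0.838), and leaving out the WT female also gave -0.13 (0.979). In females alone, with 1 WT library, it was -0.63 (edgeR adjusted p = 0.000294), where 7.67% of all genes were called. Also called in females alone were Tnnt2, Tnnc1 and Tpm1, all higher. The closest patterns to Acta2 were those of Plagl1 (0.107), Acvr2b (0.126) and Ifih1 (0.129).

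The other smooth muscle genes had values of the opposite sign to Acta2. On the TMM scale, of the 8 markers (Myh11, Tagln, Cnn1, Smtn, Mylk, Myl9, Lmod1 and Actg2) 0 passed by edgeR or DESeq2. All 8 had positive values, and 6 had an unadjusted p under 0.05 by edgeR, where 12.9% of all genes had such a p. Their median log2 fold change was 0.67, against -0.0072 over all tested genes, and 0.34 with the db/db male and WT female left out. Actg2, the enteric smooth muscle actin and a close relative of Acta2, had 1.84, 4.22 and 4.72 CPM in db/db and 1.65 and 1.09 CPM in WT (log2 fold change 1.36, edgeR adjusted p = 0.27). These rest on 10 to 43 counts per library. The coding sequences of Acta2 and Actg2 differ in length (1134 and 1131 bases) and were not compared, so how well reads separate this pair was not tested. Myh11, smooth muscle myosin, was at 0.67 on the log2 scale (edgeR adjusted p = 0.218). With limma on log2(TPM + 1), 6 of the 8 markers had positive values and their median was 0.36. In that setting 1 of the 8 had an unadjusted p under 0.05, as did 2135 of all 11668 genes. The summed markers were at 220 to 280 TPM in db/db and 213 to 223 TPM in WT, so the groups overlapped. On TMM-scaled CPM the sum was 433 to 570 CPM in db/db and 350 to 382 CPM in WT, without overlap, where 15.1% of all genes lay wholly higher. With sex as a covariate edgeR called 2 of the 8 markers higher, where 4.62% of all genes were called higher. With the gene length offset beside sex it called 1 higher, where 2.28% of all genes were.

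Relative to these markers, Acta2 was lower in every db/db library than in either WT library. Acta2 TPM was 30.0%, 30.9% and 31.9% of the summed marker TPM in db/db, against 64.8% and 45.9% in WT. The 3 db/db libraries were within 2 percentage points of each other, and both WT libraries lay well above them. The means were 30.9% ± 0.990 (SD, n = 3) in db/db and 55.4% ± 13.4 (SD, n = 2) in WT, and the exact permutation p was 0.1, the smallest possible. The db/db mean was 0.558 of the WT mean, and 0.662 of it with the db/db male and WT female left out. This ratio was chosen after the values were seen.

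Pericyte markers had values of the opposite sign to the smooth muscle markers. By edgeR, 0 of Pdgfrb, Rgs5, Cspg4, Abcc9 and Kcnj8 passed, DESeq2 called 0 as well, and 1 had an unadjusted p below 0.05; all 5 had negative values with a median of -0.21. Their summed level was 152 to 243 TPM in db/db and 269 to 340 TPM in WT, so the groups did not overlap. On TPM, 36.3% of all genes lay wholly lower in db/db. On TMM-scaled CPM the sum was 613 to 828 CPM in db/db and 878 to 947 CPM in WT, where 16.5% of all genes lay wholly lower. Acta2 was 28.1%, 33.9% and 58.8% of the pericyte marker TPM in db/db and 42.5% and 36.3% in WT, where the groups overlapped. The part of pericytes in the Acta2 values was not tested. Activated fibroblast markers (Postn, Cthrc1, Comp, Ltbp2 and Thbs4) summed to 9.73 to 20.9 TPM in db/db and 16.2 to 19.9 TPM in WT, and fibroblast markers to 435 to 656 TPM in db/db and 579 to 608 TPM in WT.

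**Figure D5:**
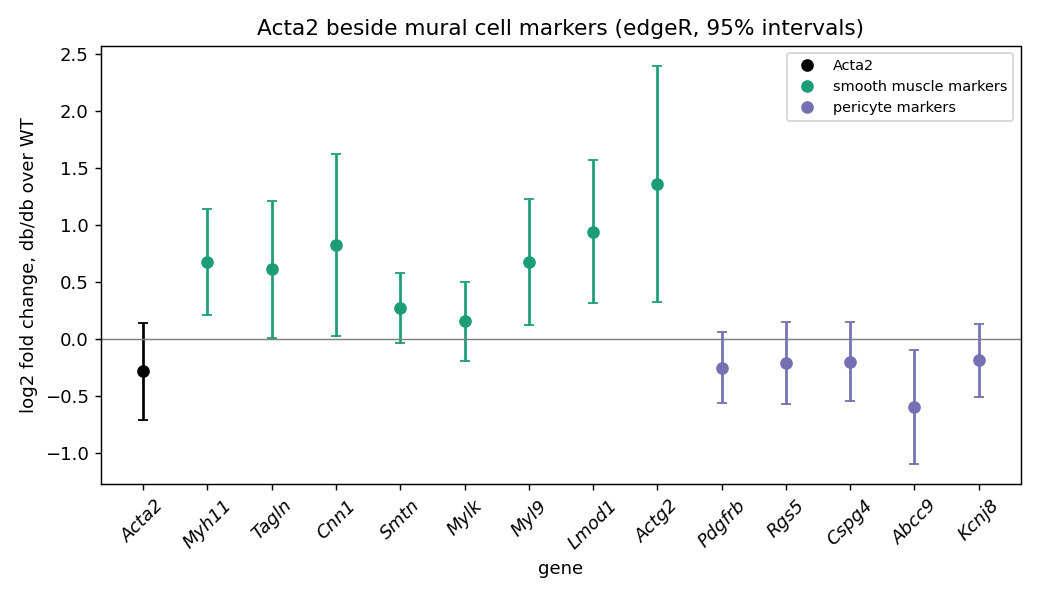
Log2 fold change of db/db over WT with 95% intervals (edgeR, TMM scale) for Acta2 (black), 8 smooth muscle markers (green) and 5 pericyte markers (purple). Acta2 is at -0.29, every smooth muscle marker is above 0 and every pericyte marker is below 0.

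Of the 8 other troponin, tropomyosin and actin genes, 0 passed by edgeR (unadjusted p under 0.05 in 1) or DESeq2, with a median log2 fold change of -0.059. With the db/db male and WT female left out, which sets the db/db females against the WT male alone, the median was -0.46, against 0.0023 over all genes. After Actg2 the smallest p belonged to Tpm3 (-0.31, edgeR adjusted p = 0.476), which had 59.3, 67.4 and 89.5 CPM in db/db and 82.9 and 95.6 CPM in WT. The fast skeletal genes Tnni2, Tnnt3 and Tnnc2 were at 0 to 4.65 TPM in all libraries.

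Of 26 genes that set thin filament length and turnover, 0 passed by edgeR (unadjusted p under 0.05 in 3) or DESeq2 and 13 had positive values, with a median of 0.0038. The smallest p belonged to Pfn2, a profilin that binds actin monomers (-0.53, SE 0.15, edgeR adjusted p = 0.152), at 24.5, 26.3 and 22.9 CPM in db/db and 35.8 and 35.1 CPM in WT. Lmod1, the smooth muscle leiomodin, followed (0.94, SE 0.29, adjusted p = 0.196). Tmod1 and Lmod2, which cap and extend the pointed end of cardiac thin filaments, had log2 fold changes of 0.14 and 0.13 (adjusted p = 0.723 and 0.745).

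Of 17 genes of actin folding and modification, 0 passed by edgeR (unadjusted p under 0.05 in 2) or DESeq2. Of these, 15 had positive values on the TMM scale, with a median of 0.11, but 3 had positive values and the median was -0.18 with limma on log2(TPM + 1). With the gene length offset 12 had positive values, the median was 0.047 and 1 had an unadjusted p under 0.05. The smallest p belonged to the prefoldin genes Pfdn6 (0.39, edgeR adjusted p = 0.289) and Pfdn5 (0.60, adjusted p = 0.306). Pfdn5 was highest in the db/db male (281 CPM) and lowest in the WT female (121 CPM), and the part of the length trend in this was not tested. Among the chaperonin genes Tcp1 and Cct2 to Cct8 the 8 log2 fold changes were between 0.016 and 0.19.

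Of the 14 transcription factors that act on sarcomere genes, 0 passed by edgeR (unadjusted p under 0.05 in 3). DESeq2 called 1, Hand2, higher, where it called 1.03% of all genes higher. On the TMM scale 8 had positive values, with a median of 0.050. With limma on log2(TPM + 1), 2 of 13 had positive values and the median was -0.23, close to that of all genes. With sex as a covariate 1 was called higher and 2 lower, where 579 of all 12540 genes were called higher and 253 lower. Hand2, a cardiac bHLH factor, had 109, 106 and 121 CPM in db/db and 75.8 and 74.4 CPM in WT (log2 fold change 0.57, SE 0.14, edgeR adjusted p = 0.0883, and 0.023 with DESeq2). Tead1, a factor that binds the M-CAT motif, had 47.4, 55.0 and 37.5 CPM in db/db and 82.3 and 58.4 CPM in WT (-0.59, SE 0.19, adjusted p = 0.231). Srf, which binds the CArG box, stood at -0.13 on the log2 scale (edgeR adjusted p = 0.727), and its coactivators Mkl1 (-0.0078) and Mkl2 (0.082) were not called.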

How the data were processed

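The authors deposited 1 table of coding genes. Per the file headers it holds, for each library, estimated read counts (expected counts), FPKM and TPM, and the authors' deposited log2 fold change, p-value and q-value for db/db against WT. The submitters' processing notes name HISAT, Bowtie2, DESeq2 and GRCm38.p6, and the counting program and its strand setting are not given in the sources used here. Of the estimated counts, 91.4% were exactly whole, and all were rounded. After 1 text fragment was dropped, 17228 genes remained. The FPKM served as an alternative and for the gene length they imply together with the counts.

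Counts passing edgeR's filter (12540 genes) were scaled with TMM, and edgeR 4.0.16 (R 4.3.3) gave the test (robust quasi-likelihood, Benjamini-Hochberg over all genes, adjusted p under 0.05). Standard errors came from the F statistic. Ratios within a library were compared by an exact two-sided permutation test over the 10 ways to assign the samples, whose smallest p is 0.1. Alternatives used DESeq2 1.42.0, limma 3.58.1, other scalings and filters, covariates and left-out samples. Intervals and the floor of 3 counts cover counting error only where they come from counts.

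On simulated counts for the 12540 genes, edgeR called 70 of the 100 genes given a 2-fold change and 95 of the 100 given a 4-fold change in the comparison of db/db with WT, with 1.79% of its calls unchanged genes. The simulated spread followed the trend over all genes, with no spread particular to a gene, length trend, sex effect or outlying library. These shares therefore need not hold for the members in the real libraries. The members, lists and tests were chosen with earlier results of these data known. All members were named. From every other list the genes called were named, or else up to 2 with the smallest p. Other genes were named after their values were seen. Sequences are from RefSeq (GRCm38.p6) and GENCODE M21. Columns of authors' group means were not used.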

Additional observations from a re-analysis of the deposited data

Results flagged for a closer look

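The log2 difference of db/db minus WT ran in opposite directions in the sexes for 3 members on the CPM scale. The share of all genes with such a split was not computed. For Tnnt1 the difference was close to 0 in the db/db females 1 and 2 (-0.0062 and -0.030) and 0.46 in the db/db male. For Actc1 it was 0.054 and 0.046 in the db/db females and -0.13 in the db/db male. For Acta2 it was -0.79 and -0.48 on the log2 scale in the db/db females 1 and 2, each set against the female WT library, and 0.21 in the db/db male set against the WT male. The difference, male minus female, was 0.84 in a model with genotype, sex and their interaction (edgeR adjusted p = 0.0124, where 1.16% of all genes were called). That model has 1 residual degree of freedom, from the db/db females, and each WT value is 1 library. For Tnnt1 the male minus female difference was 0.48 (edgeR adjusted p = 0.746), and for Actc1 it was -0.18 (adjusted p = 0.873).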

How the results depend on the processing

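Over 20 alternatives, Tnnt2, Tnni3, Tnnc1, Tpm1 and Tpm2 had positive and Acta2 negative log2 fold changes in all 20. Members called were 1 with DESeq2, 4 with a sex covariate, 4 in the females taken alone, 1 with sex and the gene length offset, and 0 otherwise, also 0 without any 1 sample. All genes called numbered 129, against 238 with DESeq2, 256 without the filter, 832 with sex, 80 with the replicate block, 984 in females alone, 25 to 240 without 1 sample each, 433 with the db/db male and WT female left out, and 445 with sex and the length offset. The last 2 settings were chosen after seeing the data.

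Signs turned for 3 members. Tnnt1 was -0.071 with library totals, -0.028 with FPKM, -0.13 with TPM and either pseudocount (1 or 0.1), -0.052 with the length offset, -0.016 in females alone, -0.19 to 0.30 without 1 sample each and -0.35 with the db/db male and WT female left out. Actc1 was 0.052 in females alone and -0.11 to 0.044 without 1 sample each. Acta1 was 0.11 in females alone and -1.27 to 0.54 without 1 sample each. The cause was not tested. Each isoform share difference moved by less than the larger of its groups' SDs. The Acta1 share still moved by more than the db/db SD, to between -3.36 and 0.664 percentage points, and the Tnni1 share difference turned to -0.00138 without the db/db female 1. For samples that share a number in their titles, deviations from the group mean correlated at 0.10, -0.13 and -0.18. With 2 WT libraries the WT deviations mirror each other, so these values cannot decide whether the numbers pair samples. Depth limits Tnni1 only.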
